A study of Mus musculus with 6 samples.

Results

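The 7 genes Gsk3b, Nf1, Pik3r1, Mtor, Tsc1, Braf and Sos1 belong to the PI3K, mTOR and MAPK signalling pathways. They were followed through the deposited list of AGO2 target peaks of mouse cortex, short genome intervals in which RNA recovered with Argonaute 2 (AGO2) piled up. A peak was credited to a gene when its midpoint lay in the gene's span, from the first to the last annotated base on mm10. By this rule the genes held 9 of the 2197 peaks. They are 7 of 21887 nuclear protein-coding genes in the annotation, and 4 of the 7 held at least 1 peak.

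The mice were VGLUT2-Cre;Spy3-AGO2 animals. The conditional Spy3-AGO2 allele gives AGO2 a peptide tag once Cre has acted, and the tag couples to SpyCatcher3 protein on a resin. VGLUT2-Cre is driven from the gene of a vesicular glutamate transporter, and the cell type given in the labels is the pyramidal neuron, which uses glutamate and sends its axon out of its own area. Cortex was taken at postnatal day 14 and gave 6 libraries in 3 groups: 2 AGO2-bound target libraries, 2 AGO2-bound miRNA libraries and 2 input libraries of whole lysate. All groups carry the genotype Spy3-Ago2 in the labels, which do not say whether replicates were separate animals or pools. No Cre-negative group was analysed here. The peaks are 1 list for the series with no value per library, so counts of peaks have no replicate error and no test between groups was possible. The score the authors gave is 0 for every peak. The libraries are bulk, so fewer cells of a type and less RNA per cell cannot be told apart. Expression of the genes was not measured here, and its part in which genes held a peak was not tested. A gene without a peak is not shown to be unbound.

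Growth factor receptors switch on the small GTPase Ras through exchange factors such as Sos1, and GTPase-activating proteins such as neurofibromin, the product of Nf1, switch it off again. Active Ras drives the kinase cascade of Raf, MEK and ERK, in which Braf is the Raf kinase most prominent in neurons. In the parallel PI3K branch, the regulatory subunit encoded by Pik3r1 holds and stabilises the catalytic subunit, whose lipid product activates AKT. AKT inhibits glycogen synthase kinase 3, of which Gsk3b is the beta isoform, and inhibits the TSC complex, of which Tsc1 is the scaffold. The TSC complex in turn restrains the kinase mTOR, which sets protein synthesis and cell growth. In neurons these pathways control dendrite growth, axon formation and synaptic plasticity. A microRNA (miRNA) guides AGO2 to a target RNA mainly by pairing through its seed, bases 2 to 8, most often in the 3′ untranslated region.

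Several miRNA families are known from the literature as regulators of these genes, and 6 of them were listed here: miR-26 beside Gsk3b, miR-29 beside Pik3r1, miR-128, miR-137 and miR-103 beside Nf1, and miR-99/100 beside Mtor. These pairs were written from general knowledge and were not checked against a source. The mature sequences of the most counted miRNA of each family are shown so that the seeds can be set against one another. They are from RefSeq on GRCm38.p6, which corresponds to mm10, 5′ to 3′ with the seed in capitals.
miR-26a-5p: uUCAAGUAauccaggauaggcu
miR-29a-3p: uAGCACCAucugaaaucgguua
miR-128-3p: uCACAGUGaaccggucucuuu
miR-137-3p: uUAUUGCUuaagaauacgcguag
miR-103-3p: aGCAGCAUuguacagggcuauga
miR-99a-5p: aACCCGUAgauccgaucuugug
The 6 families have 6 different seeds. All 12 listed miRNAs matched a RefSeq sequence, and within each family the members shared the seed: miR-26b-5p with miR-26a-5p, miR-29b-3p and miR-29c-3p with miR-29a-3p, miR-107-3p with miR-103-3p, and miR-99b-5p and miR-100-5p with miR-99a-5p. The bases of the peaks themselves were not read, because no genome sequence was used here. No peak is therefore assigned to a miRNA.

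The peaks were unequally spread over the 7 genes. Gsk3b had 4, Nf1 and Pik3r1 had 2 each, Tsc1 had 1, and Mtor, Braf and Sos1 had 0. Among all nuclear protein-coding genes 4.30% had at least 1 peak. Among the 4179 whose spans lay in the range of these 7 genes, 50.2 to 242 kb, the share was 8.71%. By strand the count was also 4 of 7, against 3.32% of all nuclear protein-coding genes of known strand and 6.68% of those in this range of spans. The 4 of 7 (57.1%, exact 95% interval 18.4 to 90.1) stand above these values, but the genes were proposed with earlier counts of this list in view, so the excess supports nothing by itself. At least 4 peaks, as in Gsk3b, were found in 0.411% of nuclear protein-coding genes, and at least 2 peaks in 1.37%. No further peak had its midpoint within 20 kb outside any of the 7 spans, so the edge of the spans decided no count. The nearest outside peak was 36.9 kb from Mtor and between 88.0 and 907 kb from the other 6 genes.

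**Figure D1:**
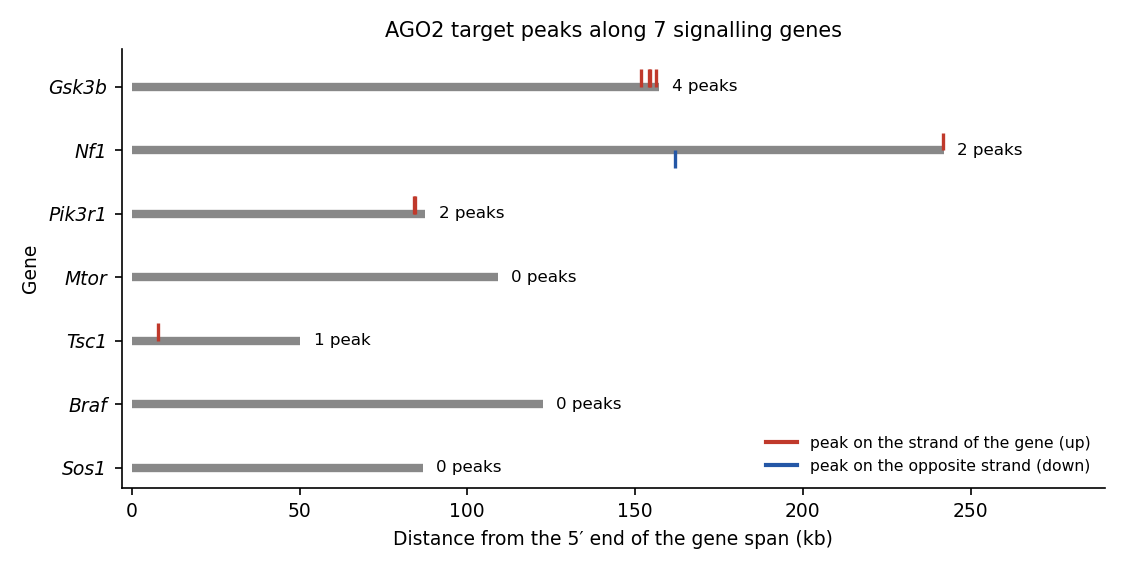
Gene spans of the 7 signalling genes as grey bars, with distance from the 5′ end in kb on the horizontal axis and 1 row per gene. Ticks are peak midpoints, red and upward on the strand of the gene, blue and downward on the opposite strand. The 7 red ticks of Gsk3b, Nf1 and Pik3r1 sit at the right end of their bars, and that of Tsc1 sits near the left end.

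Gsk3b carried the most peaks of the 7 genes. It encodes a kinase that phosphorylates microtubule-binding proteins, beta-catenin and glycogen synthase, and that is inhibited when AKT is active. Its span lies on the plus strand of chromosome 16, from 38089001 to 38246084 (157 kb). All 4 peaks were on the plus strand. The first, chr16:38240735-38240766, was 32 nt wide with its midpoint 5334 nt from the 3′ end of the span. The second, chr16:38243210-38243296, was 87 nt wide and lay 2831 nt from the end. The third, chr16:38243471-38243535, was 65 nt wide and lay 2581 nt from the end. The second and the third peak were separated by 174 nt, and gaps of 2443 and 1500 nt lay before and after this pair. The last, chr16:38245036-38245205, was the widest peak of the 7 genes with 170 nt and lay 964 nt from the end. At least 170 nt were reached by 59 of the 2197 peaks (2.69%). From the first to the last, the 4 peaks stretched over 4471 nt, and all had their midpoints in the last 3.40% of the span.

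Pik3r1 had a tight pair of peaks. It encodes the p85 alpha regulatory subunit of class I PI3K, and shorter isoforms from internal promoters. Its span lies on the minus strand of chromosome 13, from 101680761 to 101768217 (87.5 kb). The peak nearer the 5′ end, chr13:101684104-101684139, was 36 nt wide and lay 3360 nt from the 3′ end. The peak nearer the 3′ end, chr13:101683775-101683816, was 42 nt wide and lay 3034 nt from the end. Both were on the minus strand, 287 nt apart, and together they covered 78 bases of a 365 nt stretch. That gap is close to the median of 308 nt over the 485 gaps between neighbouring peaks on the strand of a gene in the whole list. No other annotated gene overlaps the span of Pik3r1.

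Nf1 had 2 peaks on opposite strands. Neurofibromin is a large GTPase-activating protein that lowers active Ras. Its span lies on the plus strand of chromosome 11, from 79339590 to 79581609 (242 kb), the longest of the 7. The plus-strand peak, chr11:79581366-79581458, was 93 nt wide and lay 197 nt from the 3′ end of the span, the closest of the 9 peaks to an end. The other peak, chr11:79501627-79501663, was 37 nt wide, lay on the minus strand and was 79964 nt from the end of Nf1. Its midpoint also lies in Omg (chromosome 11, 79500982 to 79504082), the gene of oligodendrocyte myelin glycoprotein, which is known to sit in an Nf1 intron in the opposite orientation. It was the single peak in the 3101 nt span of Omg, 663 nt from the 3′ end if Omg is read on the minus strand. Counted by strand, Nf1 therefore had 1 peak.

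Tsc1 had a single narrow peak far from its 3′ end. Its product, hamartin, keeps tuberin, the GTPase-activating protein for Rheb, stable. The span lies on the plus strand of chromosome 2, from 28640993 to 28691172 (50.2 kb), and is the shortest of the 7. The peak, chr2:28648789-28648811, was on the plus strand, 23 nt wide and 7807 nt from the 5′ end, or 42.4 kb from the 3′ end. It was the narrowest of the 9. Peaks of at most 23 nt made up 5.92% of the list (130 of 2197). A midpoint in the first 20% of the span was found for 27 of 1066 pairs of a protein-coding gene and a peak on its strand (2.53%). Whether this place is an exon or an intron was not read here.

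Mtor, Braf and Sos1 had no peak on either strand. Mtor, the kinase of both mTOR complexes, spans 109 kb on the plus strand of chromosome 4 (148448582 to 148557685). Braf spans 122 kb on the minus strand of chromosome 6 (39603231 to 39725658). Sos1, the exchange factor that loads Ras with GTP, spans 86.7 kb on the minus strand of chromosome 17 (80393752 to 80480453). Each of these spans is longer than that of Tsc1, and Mtor and Braf, but not Sos1, are longer than Pik3r1. The genes with and without a peak thus overlapped in span, and the part of span in holding a peak was not tested.

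The last 10% of the span held the midpoints of 7 of the 9 peaks (77.8%, exact 95% interval 40.0 to 97.2). Over all peaks in nuclear protein-coding spans the share was 66.6%, which lies inside that interval. The 7 were those of Gsk3b and Pik3r1 and the plus-strand peak of Nf1, at 0.197 to 5.33 kb from the end and beyond 96.2% of the span. The interval treats peaks of a gene as independent, although 4 of the 7 share the Gsk3b transcript. Of the 9 peaks, 8 were on the strand of the gene and 1 was opposite. Of the 1227 pairs of a peak and a protein-coding span of known strand, 13.1% were on the opposite strand. Among the peaks on the strand of a gene, the median distance to the 3′ end was 2.93 kb for the signalling genes (8 peaks). Over the list it was 1.22 kb (1066 pairs of a peak and a gene).

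Widths ranged from 23 to 170 nt, with a median of 42 nt over the 9 peaks, against 57 nt over all peaks in protein-coding spans, whose quartiles were 38 and 89 nt. The order of these medians rests on Pik3r1, without which the median of the other 7 peaks was 65 nt, and over the 8 peaks on the strand of the gene it was 53.5 nt. The 9 peaks covered 585 bases, of which Gsk3b held 354, Nf1 130, Pik3r1 78 and Tsc1 23. The peaks of Pik3r1 and Tsc1 and the minus-strand peak in Nf1 were 23 to 42 nt wide. The 3 wider peaks of Gsk3b and the plus-strand peak of Nf1 were 65 to 170 nt wide. With 9 peaks in 4 genes, no difference in width from the rest of the list was tested.

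**Figure D2:**
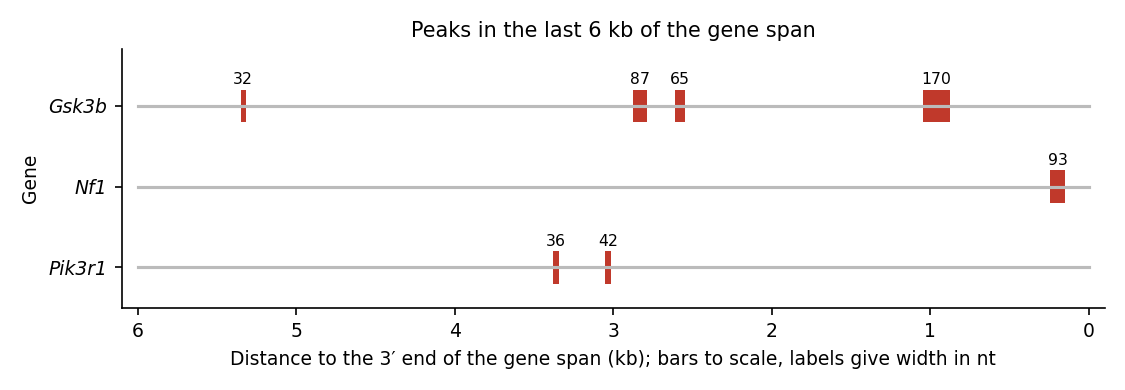
Peaks of Gsk3b, Nf1 and Pik3r1 in the last 6 kb of the gene span, with distance to the 3′ end in kb on the horizontal axis, falling to 0 at the right. Bars are drawn to scale and labelled with their width in nt. Gsk3b shows 4 peaks of 32 to 170 nt, Pik3r1 a pair of 36 and 42 nt, and Nf1 a peak of 93 nt at 0.197 kb.

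For each of Gsk3b, Nf1 and Pik3r1, the 2 genes with the same number of peaks and the nearest span are given as examples. Because they were selected for peak number, they do not measure how common a pattern is. For Gsk3b these were Kif5c, a kinesin motor gene (155 kb, 4 peaks, 3 of them in the last 10% of the span), and Hivep2, a zinc finger transcription factor gene (190 kb, 4 peaks, all 4 in the last 10%). For Nf1 they were Slc24a2, a sodium-calcium exchanger gene (248 kb), and Eif4g3, a translation initiation factor gene (215 kb), each with 2 peaks, both in the last 10% and on the strand of the gene. In these 2 genes the peaks were thus on 1 strand, unlike those of Nf1. For Pik3r1 they were Ppp2r2c, a regulatory subunit gene of protein phosphatase 2A (88.2 kb), with 2 peaks of 39 and 41 nt in the last 10%, and Pcdhga11, a clustered protocadherin gene (86.1 kb), whose 2 peaks of 141 and 190 nt each lay in several overlapping gene spans. The likeness rests on peak number and span alone, over 1 peak list.

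The rest of the pathways was read through 87 genes in 5 lists, which include the 7 genes and were written with earlier results of this list known. At least 1 peak was found in 18 of the 87 (20.7%, exact 95% interval 12.7 to 30.7), and in 14 of the 80 other genes (17.5%, 9.91 to 27.6). The median number of peaks per gene was 0 in each list. Over all nuclear protein-coding genes the share with a peak was 4.30%, and 8.71% of those with spans in the range of the 7 genes. The lists were not matched for span. With only peaks on the strand of the gene, the counts were 12 of 87 (13.8%) and 8 of 80 (10%). Of all nuclear protein-coding genes of known strand, 3.32% had such a peak, and 6.68% of those with spans in the range of the 7 genes. Listed genes of unknown strand could not count among the 12 and the 8 but stayed in the 87 and the 80. The shares by strand are therefore not on like terms with the 3.32% and 6.68%. The 80 other genes held 21 peaks, 17 of them in the last 10% of the span. Where the annotation used here gave no strand for a gene, distance was read along the strand of the peak.

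Among receptors, adaptors and Ras regulators, 6 of 21 genes had a peak, among them Nf1. Spred1, an inhibitor of the pathway that brings neurofibromin to the membrane, had 2 peaks of 168 and 91 nt at 2.71 and 2.23 kb from the 3′ end. Irs2, an adaptor of insulin and IGF receptors, had 1 peak of 41 nt at 0.130 kb from the end, and the adaptor gene Shc3 had 1 of 78 nt at 7.57 kb. Ntrk2, the receptor gene for BDNF, had 1 peak of 116 nt at 148 kb from the 3′ end of its span. Sos2, the paralog of Sos1, had 0, as did Rasa1, Rasgrf1, Igf1r and Insr. The exchange factor genes listed, Sos1, Sos2, Rasgrf1 and Rasgrf2, all had 0. With a peak in 4.30% of all nuclear protein-coding genes, most sets of so few genes would hold none. The counts of 0 here and in the lists below therefore set no class of genes apart.

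In the Ras, Raf, MEK and ERK list, 2 of 15 genes had a peak, among them Araf, a paralog of Braf, with 1 peak of 92 nt at 8.16 kb from the 3′ end. Map2k1, Map2k2 and Mapk3 had 0. In the JNK and p38 list, 2 of 9 genes had a peak: Map3k5, a stress-activated kinase gene, with 1 of 22 nt, and Mapk8ip1, a JNK scaffold gene, with 1 of 43 nt.

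In the PI3K and AKT list, 6 of 18 genes had a peak (33.3%), against 4.30% of all nuclear protein-coding genes. Gsk3a, the paralog of Gsk3b, had 2 peaks of 50 and 42 nt at 284 and 208 nt from the 3′ end of its 9.59 kb span, so both genes of the kinase carried peaks at their ends. Inpp4a, a lipid phosphatase gene, had 1 peak of 44 nt at 204 nt from the end. Phlpp2, a phosphatase gene that acts on AKT, had 1 peak of 23 nt on the opposite strand. Of the 6 PI3K subunit genes listed, Pik3r1 had a peak, while Pik3ca, Pik3cb, Pik3cd, Pik3r2 and Pik3r3 had 0, like most genes of the annotation.

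In the mTOR list, 2 of 24 genes had a peak (8.33%). Besides Tsc1, this was Rheb, the GTPase that activates mTOR, with 1 peak of 33 nt at 446 nt from the 3′ end. The components of the mTOR complexes Rptor, Rictor, Mlst8, Deptor, Akt1s1 and Mapkap1 had 0. Tsc2, Tbc1d7 and the effector genes Rps6kb1, Rps6 and Eif4ebp2 also had 0, like most genes of the annotation. The share was 33.3% in the PI3K and AKT list, and the difference between the lists was not tested.

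**Figure D3:**
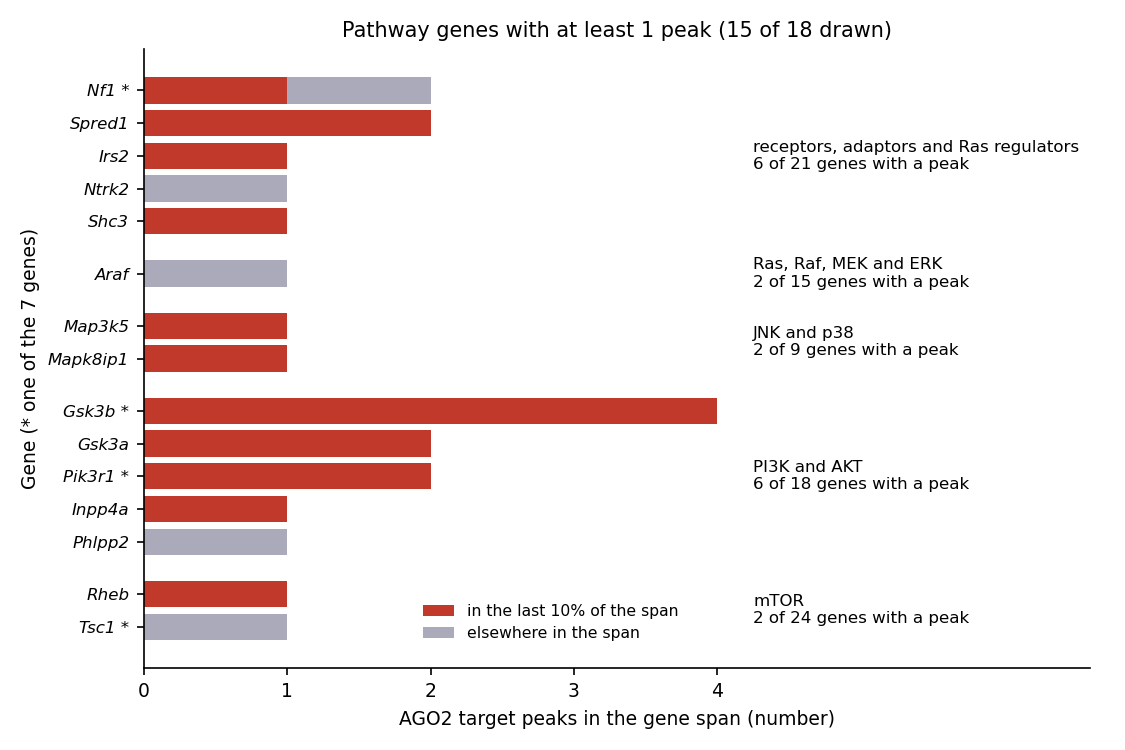
Number of peaks in 15 of the 18 pathway genes with at least 1 peak, by list from top to bottom, with peaks in the last 10% of the span in red and other peaks in grey. Gsk3b has 4, the other genes drawn have 1 or 2, and the mTOR list has a peak in 2 of 24 genes.

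The miRNA libraries show how much of each listed family AGO2 held in the same kind of sample. They held 66854 and 75658 counts. The miR-128 family, listed beside Nf1, took 13.0% of the counts in replicate 1 and 13.5% in replicate 2 (mean 13.2% ± 0.305, SD, n = 2), the largest share of any miRNA. The miR-29 family, listed beside Pik3r1, took 4.68% and 4.16% (4.42% ± 0.366), of which miR-29a-3p gave 2.02%, miR-29c-3p 1.37% and miR-29b-3p 1.03% as means. The miR-26 family, listed beside Gsk3b, took 2.63% and 2.68% (2.65% ± 0.0352), nearly all of it miR-26a-5p (1669 and 1934 counts, against 88 and 92 counts of miR-26b-5p). The gaps between these 3 families were larger than the SD of each. That SD covers the spread between the 2 libraries only, and a bias in counting that they share would not show in it.

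The other families had lower shares. The miR-99/100 family, listed beside Mtor, took 0.740% and 0.801% (0.771% ± 0.0428, SD, n = 2), led by miR-99a-5p with 316 and 405 counts. miR-137-3p took 0.696% and 0.687% (465 and 520 counts), and the miR-103 family 0.293% and 0.346% (196 and 262 counts). The order of miR-99/100 and miR-137 was the same in both libraries. The 6 families together held 22.1% ± 0.0491 of the counts (SD, n = 2). The family listed beside Mtor, a gene without a peak, was thus counted in both libraries. Its share lay below those of miR-128, miR-29 and miR-26 and above those of miR-137 and miR-103. The families listed beside Nf1, a gene with peaks, thus lay on both sides of it: miR-128 above, miR-137 and miR-103 below. No relation between shares and peaks was tested.

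**Figure D4:**
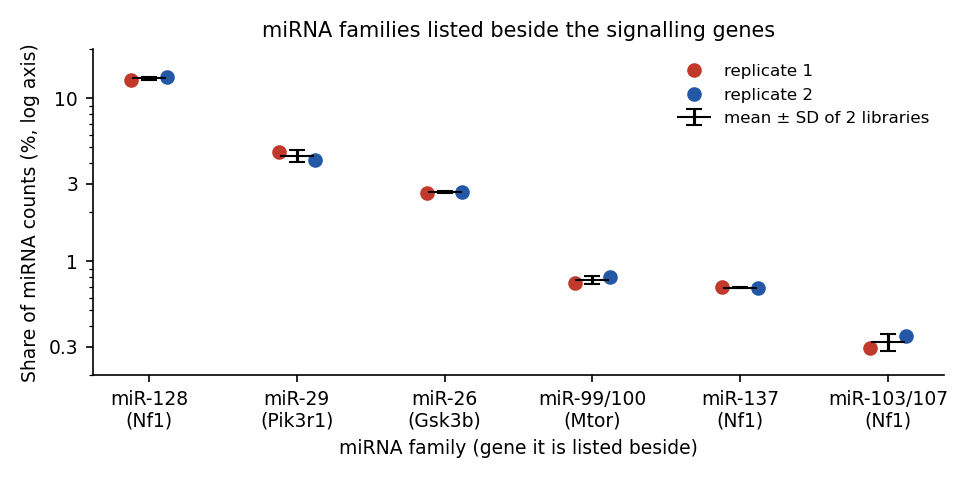
Share of miRNA counts in percent on a log axis for the 6 listed families, ordered by mean, with the gene each is listed beside in brackets. Red and blue points are replicates 1 and 2, and black bars are the mean ± SD (n = 2). Shares run from 13.2% for miR-128 to 0.320% for the miR-103 family.

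The labelled cell type was set beside the peak counts of 5 defining markers for each of 6 cell types. Glutamatergic neuron markers had a peak in 3 of 5 (among them Slc17a7 and Camk2a), with 11 peaks in all, and GABAergic markers in 1 of 5 (Sst, 1 peak). Oligodendrocyte lineage markers also had a peak in 3 of 5 (among them Mbp and Cnp), with 11 peaks, while astrocyte, microglia and endothelial markers had 0 of 5 each. The markers therefore do not separate glutamatergic neurons from the oligodendrocyte lineage in this list. At the 4.30% found over all nuclear protein-coding genes, most sets of 5 genes would hold no peak, so the counts of 0 describe nothing about those cell types. Slc17a6, the gene whose product gives VGLUT2-Cre its name, had 0. The part of RNA from oligodendrocytes or other cell types in the peaks of the 7 genes, all of which are expressed in many cell types, was not tested.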

How the data were processed

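The labels' protocols describe capture of AGO2-bound RNA on a SpyCatcher3 resin, a gel slice of 70 to 150 kDa and adapters with random bases, read as single 100 bp reads. Of the tools in the submitters' processing notes, DESeq2 1.36.0, STAR 2.5.2a, deepTools 3.1.3, Bowtie2 2.4.2, UMI-tools and cutadapt 2.10, none has a stated role; the build is mm10. How peaks were called, on which libraries and whether against the input, is not given in the sources used here. Peaks were deposited as 1 list with positions (printed counting from 1), strand and a score of 0 throughout. The deposited miRNA counts are whole reads per mature miRNA, not normalized and with duplicates kept, so intervals cover counting error only. Totals of 66854 and 75658 counts mean that a count of 0 allows a share of up to 0.00449% and 0.00397%.

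Gene spans came from RefSeq on GRCm38.p6, and strand from its promoter table for 17492 of 21887 genes. Peaks in small RNA genes were not credited to host genes. Members, lists and miRNA families were chosen with earlier results of these data known. Named genes are the 7, each pathway gene with a peak, genes sharing a peak and, for genes with at least 2 peaks, the 2 alike in peak number and nearest in span; some of these are not reported here, and pathway genes at 0 were chosen after their values were seen. Peak assignment was tested on simulated peaks. Python 3.11.15 (pandas 2.3.3, scipy 1.17.1), edgeR 4.0.16 (TMM) and DESeq2 1.42.0 (size factors) were used. Shares have exact (Clopper-Pearson) 95% intervals. No test between groups was made. Seed matches in peaks were not searched, for lack of a genome sequence.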

Additional observations from a re-analysis of the deposited data

How the results depend on the processing

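The total of 9 peaks in the 7 genes was 8 with only peaks on the strand of the gene, with only peaks at least 30 nt wide and with only peaks in 1 gene span. It stayed 9 with any overlap, with whole peaks inside the span, with spans extended by 5 kb and with peaks within 100 nt counted as 1. The positions given above fixed these outcomes, so they show nothing about stability. Every peak lay wholly inside its span, no midpoint lay within 20 kb outside, and the smallest gap was 174 nt. Single genes moved in 3 cases: Nf1 had 1 peak by strand and 1 by single span, and Tsc1 had 0 peaks at least 30 nt wide. The share of 77.8% in the last 10% of the span was also 77.8% for the last 5% and the last 20%, 66.7% within 5 kb of the 3′ end, and 60.0 to 87.5% without each gene in turn. The last 5% and the last 20% could give no other value. Midpoints lay either beyond 96.2% of the span or at 67.0% (Nf1) and 15.6% (Tsc1). The median width of 42 nt was 37 nt without Gsk3b and 65 nt without Pik3r1. Of the 87 pathway genes, 18 had a peak, 7 had at least 2, 15 had a peak at least 30 nt wide and 17 had one in a single span. The shares of the 6 miRNA families moved by less than the SD of the 2 libraries with TMM or DESeq2 totals and with miRNAs of at least 10 counts. The TMM and DESeq2 totals shift the 2 libraries in opposite directions. The mean of their shares therefore hardly changes, which shows little about stability. Leaving out a library gives the share of the other one, and with 2 libraries this moves the mean by less than the SD by construction, so it shows nothing about stability. No paired analysis was possible because the results come from no test and the peaks carry no replicate numbers. The planned search for seed matches was not run. The list's single score of 0 gave no stricter threshold, so depth behind a peak is unknown.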

Other observations

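Crediting peaks by span alone, as for the minus-strand peak in Nf1 and Omg, affects other genes too. Of 1227 pairs of a peak and a protein-coding gene of known strand, 161 (13.1%) were on the opposite strand. In 26 of these pairs (16.1%) the peak also lay on the strand of another gene of known strand. Genes without a strand in the annotation, such as Omg, could not count there. The 26 is therefore a lower bound and leaves out the peak in Nf1 and Omg. Midpoints fell in the last 10% of the span for 800 of the 1066 pairs on the strand of the gene, and for 19.9% of the 161 opposite-strand pairs. For 132 genes every peak was on the opposite strand, among them Phlpp2 of the PI3K and AKT list.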
